A study of Mus musculus with 2 samples.

Results

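Apolipoprotein transcripts were followed in hepatocytes of mice given an NRAS transgene, at widely differing Nras levels. The 10 genes Apoa1, Apoa2, Apoa4, Apoa5, Apob, Apoc1, Apoc3, Apoe, Apoh and Apom were taken by symbol out of 31054 gene rows, and each symbol matched 1 row. They were measured in 8245 hepatocytes, which are the barcodes with at least 0.5% of their UMIs (unique molecular identifiers, counted molecules) from Alb, Ttr and Fgb together, out of 10220 barcodes kept and 13151 in all. A further 509 barcodes passed this gate and also a gate for another liver cell type, and were left out of both sets. In 923 barcodes gated on non-parenchymal markers the same genes were read as a level of free RNA and of expression outside hepatocytes.

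The cells came from livers of female BL6 mice, injected at 6 to 8 weeks of age and killed on day 6 after a hydrodynamic tail-vein injection, a rapid injection of a large volume that brings plasmid into a subset of hepatocytes. Each of the 3 mice had received a transposon with mVenus, a yellow fluorescent protein, and NRAS, driven by the ubiquitous CAGGS promoter, together with a plasmid for the SB13 transposase. The NRAS carried either the activating change G12V alone or G12V with D38A, an effector-loop change used as the control, so no mouse was without transgene. Cells were tagged with 1 hashtag antibody per mouse, sorted for mVenus, pooled, and run on the 10x Genomics 3′ platform. The deposited table names hashtag 1 as the G12V/D38A mouse, with G12V behind hashtags 2 and 3, whereas in the methods the control carries hashtag 3 and G12V is behind hashtags 1 and 2. Mice are therefore named by hashtag, and no test was made between constructs.

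The library held 142080194 gene UMIs with a median of 3908 per barcode. Hashtag calls gave 420, 1342 and 234 hepatocytes for hashtags 1, 2 and 3, and 6130 hepatocytes had no call. Of 2297 deep hepatocytes, those with at least 10000 UMIs, 230, 1118 and 17 belonged to hashtags 1, 2 and 3 and 860 had no call. Hashtag 3 thus stood apart in depth, and its sums by Nras level held 9, 6, 1 and 1 cells and were left out of the main tests by Nras level. In some alternative settings its baseline or low sum entered the fit. All 10 hepatocyte markers were detected in each sum of hashtags 1 and 2. The mouse Nras row takes up reads of the construct and reached 1427 UMIs in a barcode, so Nras counts per 1000000 UMIs of other genes (CPM) served as the measure of RAS level. Deep hepatocytes were divided into baseline (under 100), low (100 to under 500), intermediate (500 to under 2000) and high (2000 or more). UMIs of mVenus stood at 5.95 and 3.18 CPM at baseline in hashtags 1 and 2, and at 316 and 276 at high Nras. Of the 108 and 603 deep baseline cells, 43 and 159 had no Nras or mVenus UMI. Baseline cells may thus hold little or no construct, and how many carried it was not determined.

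Apolipoproteins are the protein part of lipoproteins, the particles that carry cholesterol and triglyceride in blood, and the liver makes most of them. Apob is the structural protein of very-low-density and low-density lipoproteins, and Apoa1 and Apoa2 are the main proteins of high-density lipoprotein. Apoc1, Apoc3, Apoa4, Apoa5 and Apoe move between particles and adjust lipolysis and uptake, Apom carries sphingosine-1-phosphate, and Apoh (beta-2-glycoprotein I) binds anionic phospholipids.

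Several members are neighbours in the genome, so that genes of different behaviour lie side by side. In GRCm38, the assembly also called mm10, Apoa1 (ENSMUSG00000032083, 46228580 to 46230466), Apoc3 (ENSMUSG00000032081, 46232933 to 46235636), Apoa4 (ENSMUSG00000032080, 46240696 to 46243459) and Apoa5 (ENSMUSG00000032079, 46268633 to 46271919) share 43.3 kb of chromosome 9, with Apoc3 alone on the minus strand. Apoc1 (ENSMUSG00000040564, 19689481 to 19692660) and Apoe (ENSMUSG00000002985, 19696109 to 19699188) share 9.7 kb on the minus strand of chromosome 7. Apoa2 (ENSMUSG00000005681) lies at 171225054 to 171226379 on chromosome 1, Apoh (ENSMUSG00000000049) at 108343354 to 108414396 on chromosome 11, Apob (ENSMUSG00000020609) at 7977648 to 8016835 on chromosome 12 and Apom (ENSMUSG00000024391) at 35128997 to 35132050 on chromosome 17. All 10 are annotated as protein coding.

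The sequences upstream of 4 members are shown because these genes mark the extremes of what follows: Apoa5 and Apoa2 were the most reduced at high Nras, and Apoa1 and Apoe did not pass the test. They are RefSeq promoter sequences (GRCm38.p6, 5′ to 3′ on the gene's strand), cut at the annotated gene start, and 8 of 10 members had an entry. Capitals mark TATAAA or its reverse complement.
Apoa5 (chr9:46268358-46268607, plus strand): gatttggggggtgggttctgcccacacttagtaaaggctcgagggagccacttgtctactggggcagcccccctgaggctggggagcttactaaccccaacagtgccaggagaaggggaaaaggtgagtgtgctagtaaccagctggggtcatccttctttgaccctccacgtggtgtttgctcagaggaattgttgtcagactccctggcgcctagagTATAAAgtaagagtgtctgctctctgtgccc
Apoa2 (chr1:171224804-171225053, plus strand): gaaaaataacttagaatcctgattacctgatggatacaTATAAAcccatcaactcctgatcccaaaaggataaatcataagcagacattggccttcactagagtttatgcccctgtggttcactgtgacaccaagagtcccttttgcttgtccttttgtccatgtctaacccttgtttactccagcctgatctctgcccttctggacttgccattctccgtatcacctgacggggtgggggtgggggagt
Apoa1 (chr9:46228380-46228579, plus strand): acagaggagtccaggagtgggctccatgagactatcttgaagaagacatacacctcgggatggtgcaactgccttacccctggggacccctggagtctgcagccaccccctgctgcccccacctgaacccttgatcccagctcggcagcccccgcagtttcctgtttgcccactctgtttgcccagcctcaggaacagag
Apoe (chr7:19699189-19699438, minus strand): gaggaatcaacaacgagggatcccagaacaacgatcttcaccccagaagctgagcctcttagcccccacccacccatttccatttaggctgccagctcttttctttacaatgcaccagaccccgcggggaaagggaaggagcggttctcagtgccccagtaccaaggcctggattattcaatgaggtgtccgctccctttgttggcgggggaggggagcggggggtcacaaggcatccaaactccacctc
In the 250 bases upstream of the RefSeq start, TATAAA on either strand was present in Apoa5 (position -31 from the start), Apoa2 (position -212) and Apob (position -60), and in 13.0% of the 27025 promoters searched. The letters CAAAGTCCA and CAAAGGTCA, 2 forms of the motif of the hepatocyte factor HNF4, searched on both strands, were in 0.381% and 0.407% of all promoters and in none of the 8 members' windows of 250 bases, searched before they were cut. These exact letters are rare in all promoters, so their absence from 8 windows does not show a lack of HNF4 sites.

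In deep hepatocytes at baseline Nras the 10 genes together made up 5.01% of UMIs in hashtag 1 and 7.66% in hashtag 2. Because 3′ libraries count 1 tag per transcript molecule, CPM were compared between genes without division by length. Apoe led in both mice, with 20547 and 28861 CPM in hashtags 1 and 2, and Apoa1 was next with 15992 and 26994. Apoa2 followed with 4517 and 7995, and Apoc1 with 3003 and 3944. Apoc3 (1931 and 3150.3), Apoh (1955 and 2670.4), Apob (1327 and 1608) and Apom (747 and 1076) followed, and Apoc3 and Apoh changed places between the mice. Across both mice the ranges of Apoe and Apoa1 overlapped, as did those of Apoc1 and Apoc3 and those of Apoc3 and Apoh, whereas Apoa2 lay above Apoc1 in each. Apoa5, an activator of lipolysis, had 96.0 and 238 and Apoa4 25.5 and 29.2. Each member was higher in hashtag 2 than in hashtag 1, whose baseline cells also had a lower median depth (26896 against 41284 UMIs) and a higher summed level of the 59 non-parenchymal markers (217 against 69.0 CPM). The part of either in the difference between mice was not tested.

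Over all hepatocytes, whatever their depth and Nras level, hashtag 3 could be set beside the others. Apoa1 had 17906, 24291 and 11051 CPM and Apoe 20818, 25902 and 13442 in hashtags 1, 2 and 3. Apob had 1165, 1421 and 497. In contrast, Apoc1 was highest in hashtag 3, with 2277, 2964 and 3728, and Apoa2 in hashtag 3 (4054) lay between hashtag 1 (3339) and hashtag 2 (5447). The hashtag 3 hepatocytes were mostly shallow, and the comparison by depth given further on bears on the same genes. Sinusoidal endothelial markers summed to 304 CPM in its shallow baseline hepatocytes, against 109 and 67.3 in those of hashtags 1 and 2. The part of either in these levels was not tested.

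To ask how the apolipoproteins vary with RAS level, the high Nras cells were compared with the baseline cells within mice. Apoa5, Apoa2, Apoc3, Apoc1, Apoa4, Apoh, Apom and Apob were lower at high Nras, and Apoe and Apoa1 did not pass the test. Thus 8 of 10 members fell and 0 rose, where 13.3% of the 10627 genes tested fell and 13.1% rose (26.4% in either direction). The median log2 change was -1.58 over the members and -0.02 over all genes tested. UMI sums of hashtags 1 and 2 were tested with edgeR, with the mouse as a block, so the replication is 2 mice. By the deposited table these 2 mice carry G12V/D38A and G12V, and by the methods both carry G12V. The tests by Nras level may therefore pool a control construct with an active one.

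**Figure D1:**
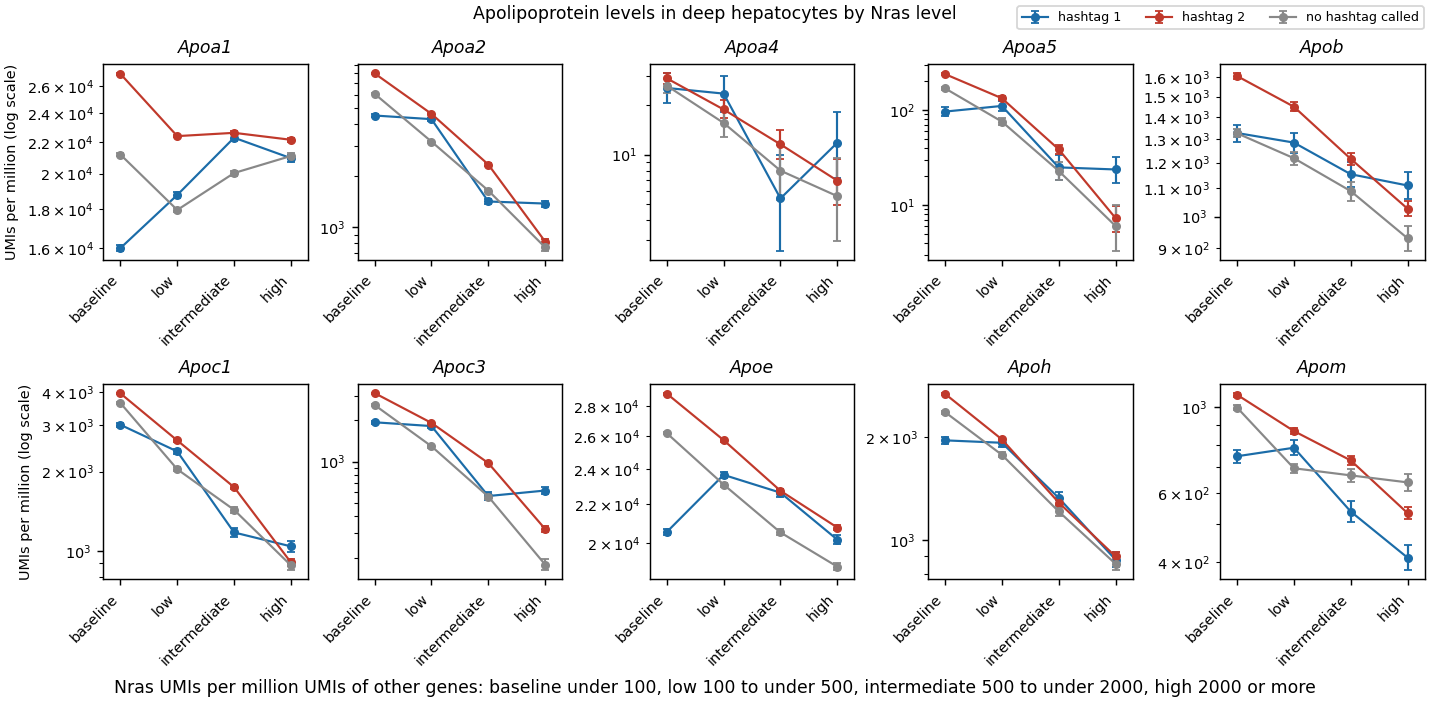
Level of each apolipoprotein in deep hepatocytes at 4 Nras levels, as CPM on a log axis that differs between panels, for hashtag 1 (blue), hashtag 2 (red) and cells with no hashtag call (grey). Bars are exact Poisson 95% intervals of the UMI sum and cover counting error only. In hashtag 2 Apoa5 goes from 238 to 7.29 and Apoa2 from 7995 to 818, while Apoa1 stays between 22144 and 26994.

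Apoa5 showed the deepest fall. Its level went from 96.0 CPM at baseline through 110.1 and 24.9 to 23.6 at high Nras in hashtag 1, and from 238 through 133 and 38.5 to 7.29 in hashtag 2. In cells without a hashtag call it went from 169 to 6.01. The log2 change was -3.82 (SE 0.53, edgeR adjusted p = 0.000668), a 14.2-fold difference. By mouse the fall was 4.06-fold in hashtag 1 and 32.7-fold in hashtag 2, a difference that was not tested. With each cell thinned to 10000 UMIs, 58.4% of baseline cells of hashtag 2 had an Apoa5 UMI (exact binomial 95% interval 54.3 to 62.3) against 3.23% at high Nras (0.67 to 9.14), and 41.7% against 16.1% in hashtag 1. Without thinning these shares were 73.3% and 24.7% in hashtag 2 and 53.7% and 25.8% in hashtag 1. In conventional dendritic barcodes, which should lack the gene, 5.54% had an Apoa5 UMI at a median of 9410 UMIs, so the share at high Nras in hashtag 2 was at the background.

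Apoa2, the second protein of high-density lipoprotein, fell from 4517 to 1369 CPM (hashtag 1) and 7995 to 818 CPM (hashtag 2). Cells with no call went from 6062 to 756. The log2 change was -2.47 (SE 0.33, adjusted p = 0.000601). The sums at high Nras lay above the median cell, which held 216 CPM in hashtag 1 and 156 in hashtag 2, with an upper quartile of 1448 and 454. At baseline the median cell held 2912 and 6579.

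Apoc3, an inhibitor of lipoprotein lipase and of remnant uptake, fell with Apoa2. It went from 1931 to 615 CPM in hashtag 1, from 3150.3 to 323 in hashtag 2 and from 2579.6 to 178 in cells with no call. The log2 change was -2.41 (SE 0.36, adjusted p = 0.00111). Apoc1, a small exchangeable apolipoprotein, went from 3003 to 1043 and from 3944 to 907, a log2 change of -1.82 (SE 0.17, adjusted p = 8.97e-05). The 3 genes Apoa2, Apoc1 and Apoc3 gave 18.8% and 19.7% of the apolipoprotein UMIs at baseline in hashtags 1 and 2, and 6.5% and 4.32% at high Nras.

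Apoa4, made mainly in intestine, was rare throughout, with sums of 90 and 733 UMIs at baseline and 20 and 40 at high Nras in hashtags 1 and 2. Its level fell from 25.5 to 11.8 and from 29.2 to 6.94 CPM (log2 change -1.77, SE 0.30, adjusted p = 0.00226). In hashtag 1 the intermediate level, 5.4 from 10 UMIs, was lower than the high one. Apoh went from 1955 to 878 and from 2670.4 to 898 (log2 change -1.38, SE 0.14, adjusted p = 0.000137). Apom went from 747 to 409.9 and from 1076 to 534 (log2 change -0.95, SE 0.12, adjusted p = 0.000437).

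Apob changed little in size. It went from 1327 to 1111 CPM (hashtag 1) and 1608 to 1027 CPM (hashtag 2), a log2 change of -0.46 (SE 0.12, adjusted p = 0.0207). This call was lost in 4 of 16 alternative settings, among them cells of 10000 to under 40000 UMIs, where the high Nras group was hashtag 2 alone and the change was -0.45 with an adjusted p of 0.214.

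Apoe and Apoa1, the most abundant members, did not pass the test. Apoe was 20547 and 20165 CPM at baseline and high Nras in hashtag 1 and 28861 and 20774 in hashtag 2, a log2 change of -0.27 (95% interval -0.56 to 0.02, adjusted p = 0.162). It passed in 3 of 16 alternative settings, each time as lower. Apoa1 was 15992 and 20953 in hashtag 1 and 26994 and 22144 in hashtag 2, so the mice moved in opposite directions (log2 change 0.02, 95% interval -0.35 to 0.40, adjusted p = 0.953). At high Nras the 2 genes were close to each other and between mice, at 20953 and 22144 for Apoa1 and 20165 and 20774 for Apoe. Apoa1 led Apoe there in both mice, the reverse of the baseline order.

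**Figure D2:**
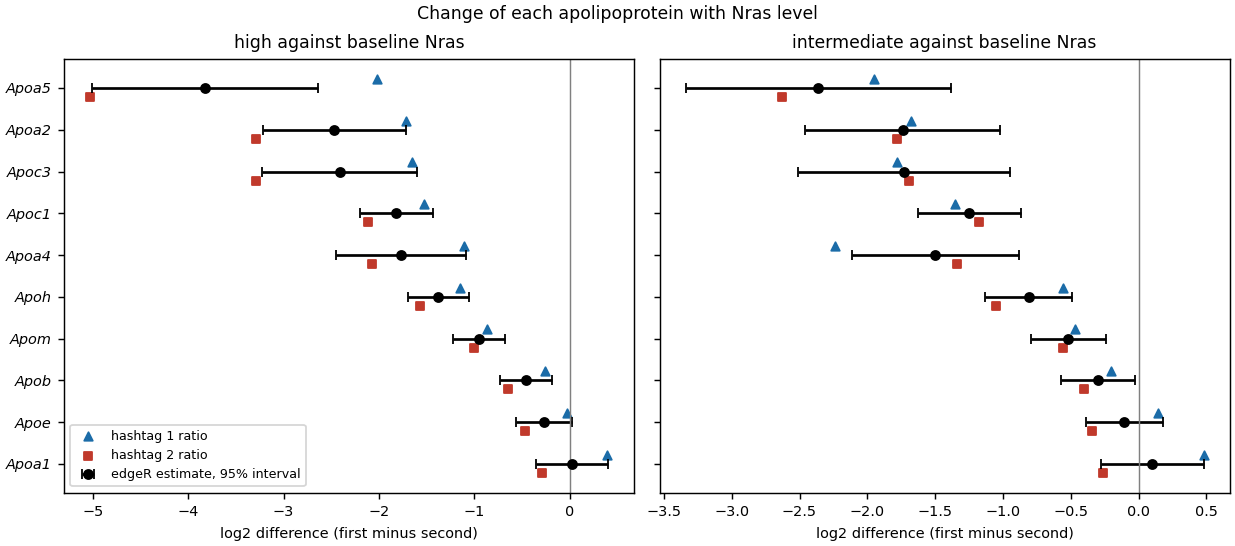
Log2 difference of each apolipoprotein between high and baseline Nras (left) and between intermediate and baseline Nras (right), with the edgeR estimate and its 95% interval in black and the ratio of CPM in hashtag 1 (triangles) and hashtag 2 (squares). The estimates run from -3.82 for Apoa5 to 0.02 for Apoa1 on the left, and hashtag 1 and hashtag 2 lie on opposite sides of 0 for Apoa1.

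The make-up of the apolipoprotein pool also differed between Nras levels. The 10 genes together went from 5.01% to 4.66% of UMIs in hashtag 1 and from 7.66% to 4.74% in hashtag 2. Apoa1 and Apoe together went from 72.9% to 88.3% of the apolipoprotein UMIs in hashtag 1 and from 72.9% to 90.5% in hashtag 2. In cells with no call the same share was 73.4% at baseline and 90.4% at high Nras. These shares are descriptions and were not tested.

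**Figure D3:**
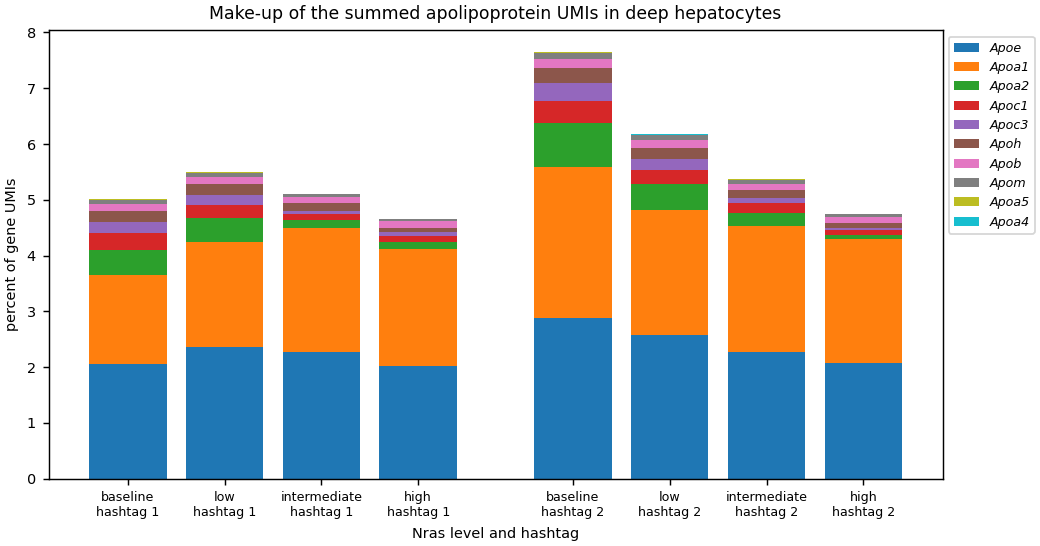
Percent of all gene UMIs given by each of the 10 apolipoproteins in deep hepatocytes, stacked, by Nras level and hashtag. The stack falls from 7.66% to 4.74% in hashtag 2 and from 5.01% to 4.66% in hashtag 1, and Apoe and Apoa1 fill most of it at high Nras.

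Levels were also set against albumin, which moves the ratio of every member by 1 common factor within a mouse and leaves their order as it is. Alb itself was lower at high Nras (log2 change -1.16, SE 0.12, adjusted p = 0.000148), and it was one of the genes of the hepatocyte gate. Apoa1 had 0.588 UMIs per Alb UMI at baseline and 1.54 at high Nras in hashtag 1, and 0.685 and 1.37 in hashtag 2. Apoe went from 0.755 to 1.48 and from 0.732 to 1.29, and Apob from 0.0488 to 0.0816 and from 0.0408 to 0.0638. Apoh (0.0719 and 0.0645, 0.0678 and 0.0557) and Apom (0.0275 and 0.0301, 0.0273 and 0.0331) stayed near their baseline ratio to Alb. Apoa5 went down relative to Alb as well, from 0.00353 to 0.00174 and from 0.00604 to 0.000452, and Apoa2 from 0.166 to 0.101 and from 0.203 to 0.0508.

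Because the gate needs Alb, Ttr and Fgb, cells that lose them leave the set. Among deep barcodes under the gate and without non-parenchymal markers, 27 had high Nras, beside the 187 high Nras hepatocytes within it. Over all calls, their median depth was 56094 UMIs and their Alb level 1369 CPM. They held 10478 Apoe and 5318 Apoa1 CPM, or 7.65 and 3.89 per Alb UMI, but 83.4 of Apoa2 and 1.34 of Apoa5, the latter from 2 UMIs. The 183 barcodes of the same kind at baseline Nras held 1063 of Apoe and 493 of Apoa1, at 1.11 and 0.517 per Alb UMI, with an Alb level of 955 and a median depth of 12031 UMIs. Apoe and Apoa1 were thus higher in the high Nras barcodes under the gate than in the baseline ones, no test was made between them, and the cell type of either set was not determined.

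Much of the difference was present already at intermediate Nras. At intermediate against baseline Nras 7 of 10 members fell and 0 rose, where 8.04% of genes fell and 7.53% rose. Apoa5 (log2 change -2.36, adjusted p = 0.00594), Apoa2 (-1.74, 0.00589), Apoc3 (-1.73, 0.00911), Apoa4 (-1.50, 0.00572), Apoc1 (-1.25, 0.00128), Apoh (-0.81, 0.00441) and Apom (-0.52, 0.0187) passed. Apob (-0.30, 0.135), Apoe (-0.11, 0.661) and Apoa1 (0.10, 0.783) did not. With the gate raised to 2%, 3 members passed among 633 genes. With at least 5 cells per sum, where hashtag 3 added its baseline and low sums of 9 and 6 cells, 2 members passed. The count of all genes called in that setting is not reported here. With cells of 10000 to under 40000 UMIs, where the intermediate group was hashtag 2 alone, 3 members passed among 111 genes.

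Between high and intermediate Nras no member passed, and 6 of 10627 genes did, all lower (0.0565%). At an unadjusted p under 0.05, 973 genes and 5 members, all lower, would have passed, and DESeq2 called 58 genes and 0 members. In other settings members were called as lower, and more genes were called in all. These were 6 members among 163 genes with a fixed hashtag rule and 4 among 225 without a filter on low counts. With halved Nras limits they were 3 among 314, and with cells ranked by mVenus 2 among 284. The setting with cells under 40000 UMIs, where each group was 1 sum of hashtag 2, is given further on. The estimates were -1.46 for Apoa5 (95% interval -2.76 to -0.16) and -0.72 for Apoa2 (-1.44 to -0.01). The mice were unlike in this step, which was not tested. Apoa2 went from 1408 to 1369 CPM (hashtag 1) and 2325 to 818 CPM (hashtag 2), and Apoa5 from 24.9 to 23.6 and from 38.5 to 7.29.

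Several other measures moved with Nras level. Median depth went from 26896 to 56269 UMIs in hashtag 1 and from 41284 to 60321 in hashtag 2. The summed non-parenchymal markers went from 217 to 62.0 CPM (hashtag 1) and 69.0 to 69.7 CPM (hashtag 2), with 39 and 24 of the 59 markers at 0 at high Nras, and the median mitochondrial share lay between 7.05% and 8.97%. With cells of at least 40000 UMIs in both groups, 9 members fell at high Nras, beside 2666 genes called in all. With cells of 10000 to under 40000 UMIs, 5 did (Apoa5, Apoa2, Apoc3, Apoc1 and Apoh), with log2 changes from -3.70 to -1.51, beside 563 genes called in all. In that range the high Nras group was a single sum of 12 cells of hashtag 2, since hashtag 1 had 7 such cells, so it rested on 1 mouse, which is assumed to vary like the other sums.

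The other genes of lipoprotein metabolism were taken from a list of 50, of which 45 were tested. Against baseline, 25 fell and 6 rose at high Nras, with a median log2 change of -0.73, where 13.3% of all genes fell and 13.1% rose. Of 7 tested genes for other apolipoproteins and particle-bound proteins 5 fell and 2 rose. Pon1, the paraoxonase of high-density lipoprotein (-4.09), Apon (-3.42) and Apof (-2.04) were lowest, and Clu, the chaperone clusterin, was 1.35 higher. Of 5 genes for high-density lipoprotein and lipases, 3 fell, namely hepatic lipase Lipc (-4.54), the cholesterol-esterifying enzyme Lcat (-2.19) and the receptor Scarb1 (-1.12).

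Of 11 tested genes of particle assembly, 5 fell and 1 rose, led by Cideb (-1.43) and the triglyceride-synthesis enzyme Dgat2 (-1.35), which fell, and the lipid-droplet gene Fitm2 (1.10), which rose. Among receptors and uptake genes the sorting receptor Sort1 fell (-1.27). Of the inhibitors of lipases, Angptl8 fell (-0.88) and Angptl4 rose (2.96). Of 12 transcriptional regulators, 9 fell and 0 rose, with the bile acid receptor Nr1h4 (-1.99), the coactivator Ppargc1a (-1.98), Nr0b2 (-1.91) and Creb3l3 (-1.61) lowest. Mttp, which loads lipid onto Apob (0.07, adjusted p = 0.81), and Hnf4a, a factor needed for hepatocyte identity (0.01, adjusted p = 0.973), were looked up after the values were seen and did not pass. Each value is a log2 difference between high and baseline Nras from the same edgeR fit.

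Outside these lists, the 5 genes whose log2 level was most like the summed apolipoprotein level over the 8 sums (2 mice by 4 Nras levels) were Fkbp2, Sdf2l1, Krtcap2, Tspan31 and Ces1f, among 2144 genes of a mean of at least 50 CPM. Pearson's r was 0.95 to 0.96, and the sums share mice and library. Among the members, r with that sum was highest for Apoe (0.97) and Apob (0.90) and lowest for Apoa1 (0.59), and each member is itself part of the sum, which raises its r.

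Within the baseline cells the members also varied from cell to cell. Spearman's rho of CPM between Apoa2 and Apoc3 was 0.85 over 108 cells of hashtag 1 and 0.89 over 603 cells of hashtag 2. It was 0.80 and 0.89 for Apoa2 with Apoc1, and 0.82 and 0.87 for Apoc1 with Apoc3. Apob stood aside from these 3, with rho of -0.12 and 0.11 with Apoc1. Apoa1 with Apoe gave 0.83 in hashtag 1 but 0.37 in hashtag 2. The cells share a library and differ in depth, so these are descriptions.

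Depth was examined by itself in hepatocytes at baseline Nras, by comparing deep cells with shallow ones (1000 to under 10000 UMIs). In the deep cells Apob, Apoh, Apoa1, Apom, Apoe, Apoa4, Apoa5 and Apoa2 made up a larger share of UMIs, and Apoc1 a smaller one. Thus 8 of 10 members were higher and 1 lower, where 18.6% and 13.8% of 6693 genes tested were (32.4% in either direction). The shallow cells had no Nras UMI, since 1 UMI puts such a cell above the baseline limit, and their median mitochondrial share was 0.605% to 4.44% against 7.05% and 8.97% in deep cells of hashtags 1 and 2. Hashtag 3 entered this fit with its shallow sum alone, since it had 9 deep baseline cells. In these cells Apoa2 was lower than in its shallow cells (1985 against 4396 CPM), as were Apoa5 (27.2 against 62.9) and Apoc3 (698 against 2178). Apoa4 had no UMI in them. Apoa1, Apob, Apoe, Apoh and Apom were higher and Apoc1 lower, as in hashtags 1 and 2.

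Apob had the largest estimate with depth, through hashtag 1. It had 148, 485 and 165 CPM in shallow cells of hashtags 1, 2 and 3 and 1327 and 1608 in deep cells of hashtags 1 and 2 (log2 difference 2.60, SE 0.31, adjusted p = 0.00449). The ratio was 8.98-fold in hashtag 1 and 3.31-fold in hashtag 2, where Apoa1 had 3.35-fold and Apoh 3.32-fold. Apoh went from 572 to 1955 in hashtag 1 and from 804 to 2670.4 in hashtag 2 (1.95, SE 0.10, adjusted p = 0.00151). Apoa1 went from 5638 to 15992 and from 8066 to 26994 (1.82, SE 0.10, adjusted p = 0.00151), and Apoe from 9165 to 20547 and from 11715 to 28861 (1.43, SE 0.08, adjusted p = 0.00151). For Apoa2 the difference was 0.55 (SE 0.08, adjusted p = 0.00635) and for Apoc3 0.47 (SE 0.16, adjusted p = 0.074). Apoc1 went from 3977 to 3003 and from 5667 to 3944 (-0.26, SE 0.08, adjusted p = 0.0478). The call of Apoa2 held in 5 of 14 alternative settings, that of Apoa4 in 6 of 13 and that of Apoa5 in 8 of 14. That of Apoc1 was lost in 10 of 14, and the difference was 0.15 in cells without any Nras or mVenus UMI.

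**Figure D4:**
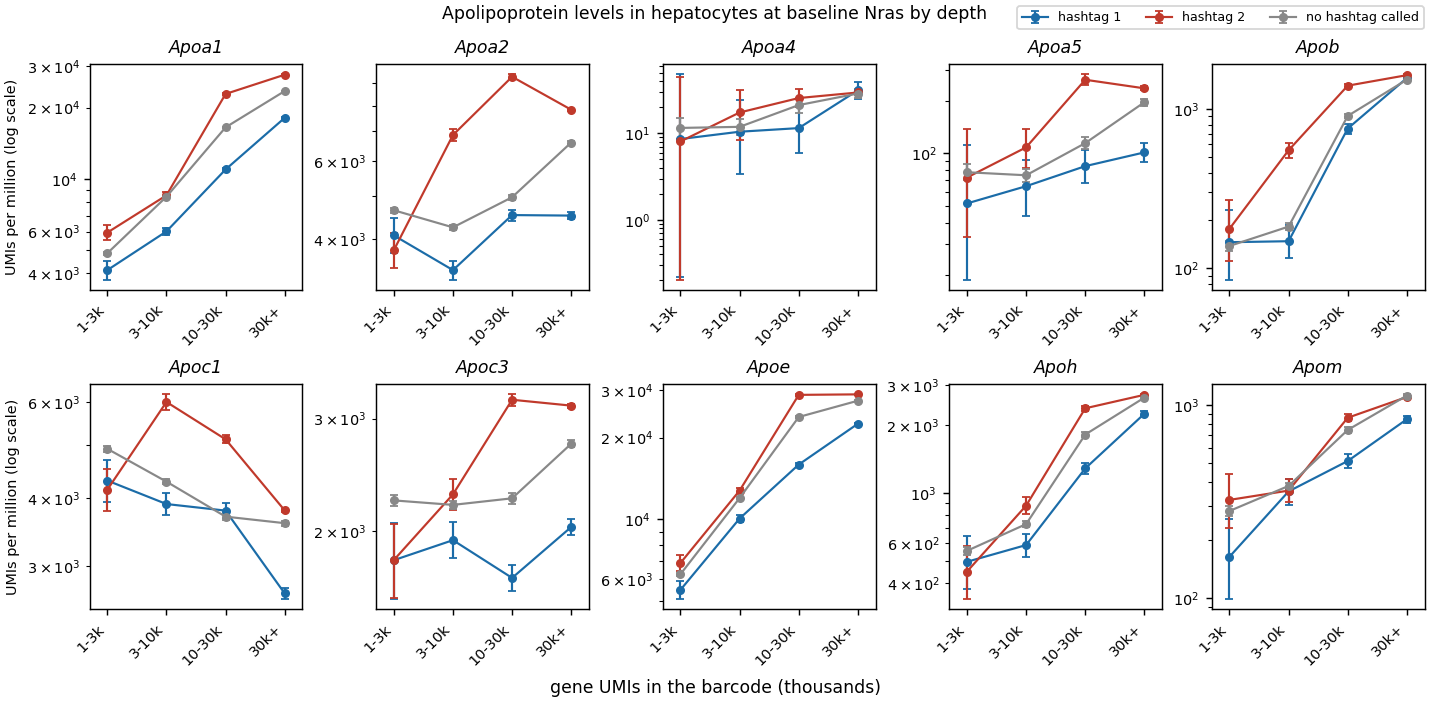
Level of each apolipoprotein in hepatocytes at baseline Nras by UMIs in the barcode (1000 to under 3000, 3000 to under 10000, 10000 to under 30000, 30000 or more), as CPM on a log axis that differs between panels, with exact Poisson 95% intervals. In hashtag 1 Apob goes from 146 to 1567 and Apoc1 from 4303 to 2671 between the shallowest and the deepest class.

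The 3 members that moved least upward with depth have the shortest transcripts. The longest coding transcript has 518 bases in Apoa2, 532 in Apoc1 and 709 in Apoc3, between 1013 and 2515 in the other members except Apob, and 13934 in Apob. Over all genes tested with a length (6595 of 6693), the median log2 difference between deep and shallow cells was -0.34 for transcripts under 750 bases (216 genes) and 0.86 for those of 6000 or more (757 genes). Between high and baseline Nras the same classes had medians of -0.07 and -0.01.

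The ratios to Alb in shallow hepatocytes were set beside those in barcodes of other cell types. Over all hashtags, Apoa1 had 0.509 UMIs per Alb UMI in shallow baseline hepatocytes and 0.523 in non-parenchymal barcodes, Apoc1 0.334 in each, Apoa2 0.326 and 0.289, Apoc3 0.161 and 0.129, Apoh 0.0484 and 0.0555, and Apom 0.0248 and 0.0276. Apob was lower in the shallow hepatocytes, at 0.0132 and 0.0249, and Apoa5 had 0.00556 and 0.00593. In deep baseline hepatocytes the ratios were 0.656 for Apoa1, 0.103 for Apoc1, 0.192 for Apoa2, 0.0776 for Apoc3, 0.0681 for Apoh, 0.0406 for Apob, 0.0279 for Apom and 0.00548 for Apoa5. The part of free RNA in the shallow levels was not tested.

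Over the non-parenchymal barcodes as a whole the members other than Apoe were low, at levels that differed between classes. Apoc1 was raised in macrophage barcodes, as described further on. In the 923 non-parenchymal barcodes Apoa1 had 721 CPM (95% Poisson interval 700.0 to 743), against 24074 in deep baseline hepatocytes of all calls together. By class it ranged from 567 in conventional dendritic barcodes to 1215 in B-cell barcodes, leaving out classes of under 5 barcodes, and its ratio to Alb from 0.463 to 0.691. Apob had 34.4, Apom 38.1, Apoh 76.6, Apoc3 178, Apoa2 398, Apoa5 8.18 and Apoa4 1.34 CPM. Apom ranged from 28.5 (23.0 to 34.9) in conventional dendritic to 90.3 (55.2 to 139) in T and NK barcodes, and Apoh was 54.5 (46.8 to 63.2) in conventional dendritic and 115 (101 to 130.3) in sinusoidal endothelial ones.

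Apoe, a gene that macrophages are known to express, stood apart. In 37 macrophage barcodes it reached 22448 CPM (95% interval 21907 to 22999), beside 22383 in all hepatocytes, and it was 21236, 21348 and 24145 in those of hashtags 1, 2 and 3. There were 16.8 Apoe UMIs per Alb UMI in macrophage barcodes, against 0.823 in hepatocytes, 0.739 in conventional dendritic and 0.815 in T and NK barcodes. Sinusoidal endothelial barcodes, of which 370 of 437 were of hashtag 3, held 5745 Apoe CPM and 3.21 per Alb UMI. Apoc1, the neighbour of Apoe, had 1715 CPM (1568 to 1872) and 1.29 per Alb UMI in macrophage barcodes, against 228 and 0.212 in conventional dendritic ones. The level in macrophages was thus above free RNA for Apoe and Apoc1, while Apoa1 there had 845 CPM and 0.634 per Alb UMI. The macrophage markers summed to 0.923 to 24.3 CPM in the deep hepatocyte sums of hashtags 1 and 2, and their part in the hepatocyte Apoe level was not tested.

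**Figure D5:**
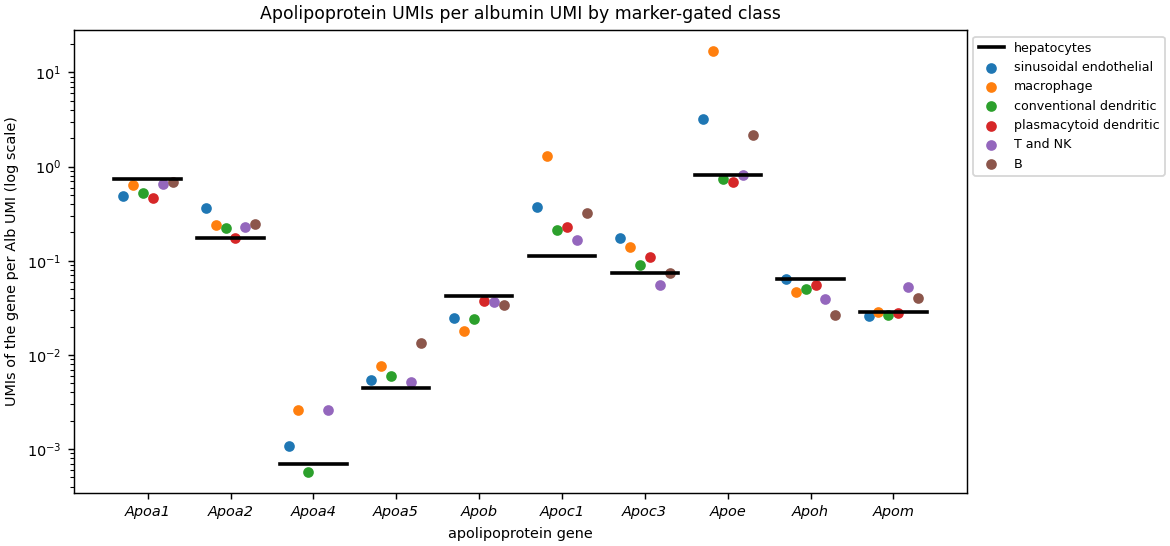
UMIs of each apolipoprotein per Alb UMI on a log axis, with all hepatocytes as black lines and 6 non-parenchymal classes as points, where classes at 0 are not drawn. Macrophage barcodes stand at 16.8 for Apoe and 1.29 for Apoc1, and hepatocytes at 0.823 and 0.112.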

How the data were processed

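The authors deposited UMI counts per gene and barcode and, from a second library, counts per hashtag. They were made with Cell Ranger 2.1.1 per the submitters' processing notes (the matrix header gives 3.0.2) against mm10, and the hashtags with CITE-seq-Count per the methods. Cells of 3 mice were pooled and loaded on several lanes, which cannot be told apart here. Barcodes with at least 1000 UMIs, 500 genes and under 20% mitochondrial UMIs were kept. No doublet caller was run beyond the hashtags, which were called with HTODemux (Seurat 5.3.0, quantile 0.99), and called doublets entered no test.

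Non-parenchymal barcodes had at least 3 detected markers of a class, summing to at least 0.2% of UMIs and more than any other class, with Alb, Ttr and Fgb under 0.5%. Nras and mVenus were left out of library sizes and tests. UMIs were summed per hashtag and Nras or depth class, sums of under 10 cells were left out, and all genes were tested in 1 fit with edgeR 4.0.16 (quasi-likelihood, TMM, filterByExpr, hashtag as block) in R 4.3.3, with Benjamini-Hochberg adjustment at 0.05. The hashtag marks the mouse, so same-numbered sums come from the same animal. The p-values measure the spread left between sums of 2 mice after the mouse block, also in the comparison by depth, where the lone shallow sum of hashtag 3 is taken up by its block. Residual degrees of freedom were 3 by Nras and 1 by depth. The fit added prior degrees of freedom, taken from all genes, of 6.277 by Nras and 4.492 by depth. Poisson and binomial intervals (95%) cover counting error only. The code was tested on simulated data.

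The members and the gene lists were chosen with earlier results of these data known. All 10 members are named. Of the list of 50 lipoprotein genes, counts are given for 4 of 6 groups with the 2 to 4 that changed most among those called (some of the listed genes are not reported here), and the 5 genes most like the summed members were taken by Pearson's r of log2(CPM + 1). Alternatives covered scaling, filter, DESeq2 1.42.0, the block, each hashtag, gates, hashtag calls, class limits and depth. No other column of samples was present (0). Coordinates are from GENCODE M21 on GRCm38.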

Additional observations from a re-analysis of the deposited data

Results flagged for a closer look

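In 5 cases a member moved in opposite directions in hashtag 1 and hashtag 2, which the deposited table pairs with G12V/D38A and G12V. Apoa1 between high and baseline Nras had a log2 ratio of 0.39 in hashtag 1 and -0.29 in hashtag 2, and between intermediate and baseline Nras 0.48 and -0.26. Apoe between intermediate and baseline Nras had 0.14 and -0.34. Between high and intermediate Nras, Apoa4 had 1.13 and -0.74, from 10 and 20 UMIs in hashtag 1, and Apoc3 had 0.13 and -1.59. The differences between mice were not tested: with 1 sum per mouse and Nras level, a term for mouse by level leaves no residual degrees of freedom. The methods place both hashtags in G12V mice, so the mouse and the construct cannot be told apart. Depth also differed: from baseline to high Nras its median went from 26896 to 56269 UMIs in hashtag 1 and from 41284 to 60321 in hashtag 2. With cells of 40000 UMIs or more, the estimate for Apoa1 over both mice between high and baseline Nras was -0.12. The part of depth in the opposite directions was not tested.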

How the results depend on the processing

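Between high and baseline Nras, Apoa2, Apoa5, Apoc1, Apoc3 and Apoh were lower in all 16 alternatives with a test, Apoa4 in 15, Apom in 13 and Apob in 12. Without the replicate block the members lower stayed at 8, and no member was higher in any alternative. With cells of 10000 to under 40000 UMIs 5 members were lower and 563 genes called (2802 in the main setting), and with the 2% gate 1260 genes. Apoa1 was -0.02 without the replicate block, -0.05 with library sizes without gate genes and members, -0.27 with a fixed hashtag rule, -0.01 with halved Nras limits and -0.12 with cells of 40000 UMIs or more. Leaving out a hashtag left 1 mouse and no test, and Apoa1 then ranged from -0.29 to 0.39.

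Between intermediate and baseline Nras, where 1654 genes were called, DESeq2 called 1066, the fit with no replicate block 1064, the 2% gate 633 (3 members lower), halved limits 883, mVenus ranking 978, and cells under 40000 UMIs 111 (3 members). With 5 cells per sum, where sums of hashtag 3 entered, 2 members were lower (all genes called there are not reported here). Apoa1 was -0.11 with the fixed rule, -0.03 with halved limits and -0.07 with cells of 40000 UMIs or more. Leaving out 1 mouse gave Apoa1 from -0.26 to 0.48 and Apoe from -0.34 to 0.14.

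Between high and intermediate Nras, where 6 genes and 0 members were called, the genes called were 17 with library size only, 58 with DESeq2, 225 without a filter (4 members lower), 0 without the replicate block, 19 with library sizes without gate genes and members, 2 with the 2% gate, 33 with up to 50% mitochondrial UMIs, 163 with the fixed rule (6 members), 0 with 5 cells per sum, 314 with halved limits (3 members), 0 with doubled limits, 284 by mVenus (2 members) and 114 with cells under 40000 UMIs (4 members), where intermediate and high Nras were 1 sum each, of hashtag 2. Leaving out 1 mouse gave Apoc3 from -1.59 to 0.13 and Apoa4 from -0.74 to 1.13. The 2% gate gave Apoa1 0.17, Apob 0.01 and Apom 0.01. Apoa1 was 0.02 with halved and 0.03 with doubled limits, and cells under 40000 UMIs gave Apoe 0.02 and Apoa1 0.37.

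By depth, where 2170 genes were called with 8 members higher and 1 lower, DESeq2 called 916, the 2% gate 441 (3 members higher), keeping barcodes in both gates 1007 (5), the fixed rule 316 (4), the limit of 5000 UMIs 1358 (5) and cells without Nras or mVenus UMI 1201. With up to 50% mitochondrial UMIs and with 5 cells per sum 5 members were higher (all genes called there are not reported here). The members lower were 0 with each of these except the mitochondrial limit, and also without a filter, without the replicate block and with the limit of 20000 UMIs. Apoa2 was -0.06 and Apoc3 -0.25 with the mitochondrial limit, -0.00040 and -0.19 with 5 cells per sum, and Apoc1 0.15 without Nras or mVenus UMI. With library size only, the median of all genes was -0.18 in place of 0.02.

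With the 2% gate, levels in CPM moved for hashtag 1 to 4626 (Apoa2), 26.4 (Apoa4), 1986 (Apoc3), 2159 (Apoh) and 869 (Apom), for hashtag 2 to 6721 (Apoa2) and 2691 (Apoc3), and for hashtag 3 to 23081 (Apoa1), 20.8 (Apoa4), 2482 (Apoc3), 25136 (Apoe), 1758 (Apoh) and 841 (Apom). The fixed rule moved hashtag 3 to 5284 (Apoa2), 33.5 (Apoa4), 152 (Apoa5), 4947 (Apoc1) and 3250.5 (Apoc3). With no limit on the hepatocyte share, non-parenchymal barcodes held 2028 (Apoa1), 834 (Apoa2), 3.71 (Apoa4), 18.1 (Apoa5), 64.1 (Apob), 886 (Apoc1), 407 (Apoc3), 157 (Apoh) and 104 (Apom), and with a marker share of 0.5% Apoa4 was 2.25. The causes were not tested.

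Depth limits Apoa4 and Apoa5 most, since Apoa4 had 20 and 40 UMIs and Apoa5 40 and 42 at high Nras in hashtags 1 and 2. The fixed hashtag rule gave hashtag 1 to 291 of 860 deep hepatocytes that had no call, and left 745 of 1118 of hashtag 2 without one.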

Other observations

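Apoe was also found above the free RNA ratio in other classes with few barcodes. In 4 stellate barcodes there were 12615 Apoe CPM and 6.38 per Alb UMI. In 25 B-cell barcodes the ratio was 2.17, but by mouse it was 0.618 in 6 barcodes of hashtag 1, 4.88 in 8 of hashtag 2 and 0.968 in 10 of hashtag 3. Sinusoidal endothelial barcodes held 1.73 per Alb UMI in hashtag 1, 4.21 in hashtag 2 and 3.3 in hashtag 3, from 15, 27 and 370 barcodes.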
